A study of Mus musculus with 5 samples.

Results

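The proteasome genes described here were all rows of the 5 deposited tables whose symbol starts with Psma to Psmg followed by a digit, and 46 of the 11924 listed genes met that rule. They comprised 7 alpha ring genes (Psma1 to Psma7), 7 constitutive beta ring genes (Psmb1 to Psmb7), the immunoproteasome catalytic genes Psmb9 and Psmb10, and 6 base ATPases (Psmc1 to Psmc6). A further 11 encode other subunits of the 19S regulatory particle, 3 encode 19S assembly chaperones (Psmd5, Psmd9, Psmd10), and 4 are activator genes (Psme2, Psme2b, Psme3, Psme4). The inhibitor gene Psmf1 and 4 assembly chaperones of the 20S core (Psmg1 to Psmg4) were the remaining proteasome genes. Psmc3ip matched by name only: it encodes a DNA recombination cofactor and no proteasome subunit. Psmb8 and Psme1 were not analysed here.

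The cells profiled were labelled as SMARTA cells, CD4 T cells that all carry 1 transgenic receptor for a viral peptide, with the strain labelled C57BL/6. CD4+CD45.1+ cells were sorted, and each of 5 groups gave 1 droplet library of 3′ transcript ends counted by unique molecular identifiers (UMIs). Naive cells came from spleen. For the other 4 groups the inguinal lymph node on the side of the tumor was taken on day 8, after no treatment, anti-CTLA4 antibody on days 0, 2 and 5, depletion of regulatory T cells (Tregs) with diphtheria toxin on days 0 and 2, and both treatments. They are called the naive, untreated, antibody, depletion and both-treatment libraries. As tumor, the protocols give MC38 in one place and PyMG in another. An isotype antibody appears in the description of the whole series but in the labels of none of the libraries, and untreated is read from that sample's title. The allele that makes Tregs sensitive to toxin and the number of mice per library are not given in the sources used here.

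The proteasome degrades proteins tagged with ubiquitin. Its 20S core is a stack of alpha and beta rings, and Psmb5, Psmb6 and Psmb7 encode the catalytic beta subunits, while the 19S particle binds, unfolds and feeds in substrates. In lymphocytes, and in other cells under interferon gamma, the catalytic subunits can be exchanged for the immunoproteasome forms, Psmb9 in place of Psmb6 and Psmb10 in place of Psmb7. The core can also carry the PA28 cap, of which Psme2 encodes the beta subunit.

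The proximal promoters of 5 genes on which the results turn are shown to set the immunoproteasome and PA28 genes beside constitutive ones. Each runs 5′ to 3′ along the gene from 250 bases before to 50 after the annotated start (RefSeq, GRCm38.p6), and a promoter in that table was found for 39 of the 46 members. The windows are Psmb9 (chr17:34187281-34187580, minus strand), Psme2 (chr14:55591052-55591351, minus strand, the first of its 2 listed starts), Psmb10 (chr8:105938343-105938642, minus strand), Psmb5 (chr14:54617946-54618245, minus strand) and Psmb6 (chr11:70525107-70525406, plus strand). The window of Psmb9 overlaps by 275 bases that of Tap1, the peptide transporter gene read in the opposite direction. Capitals mark CCAAT in Psmb9 (here on the opposite strand, ATTGG) and TGACNNNGC, the core letters of the antioxidant response element, in Psmb5 and Psmb6.
Psmb9: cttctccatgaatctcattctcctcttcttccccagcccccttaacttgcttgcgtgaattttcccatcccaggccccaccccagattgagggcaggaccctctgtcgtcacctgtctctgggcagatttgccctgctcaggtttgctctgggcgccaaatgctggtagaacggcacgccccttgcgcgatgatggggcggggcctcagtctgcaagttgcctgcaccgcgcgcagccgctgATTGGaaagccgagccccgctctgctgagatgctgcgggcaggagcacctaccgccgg
Psme2: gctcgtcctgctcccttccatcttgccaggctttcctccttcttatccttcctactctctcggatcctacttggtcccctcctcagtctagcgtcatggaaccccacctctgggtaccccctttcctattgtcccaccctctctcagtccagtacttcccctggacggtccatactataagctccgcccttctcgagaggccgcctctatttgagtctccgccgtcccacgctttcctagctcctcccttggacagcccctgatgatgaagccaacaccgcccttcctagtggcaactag
Psmb10: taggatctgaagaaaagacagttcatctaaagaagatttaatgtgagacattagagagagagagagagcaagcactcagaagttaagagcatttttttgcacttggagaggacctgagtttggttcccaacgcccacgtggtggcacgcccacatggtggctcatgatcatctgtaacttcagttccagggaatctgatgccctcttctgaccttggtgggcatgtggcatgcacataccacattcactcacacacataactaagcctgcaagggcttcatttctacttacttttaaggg
Psmb5: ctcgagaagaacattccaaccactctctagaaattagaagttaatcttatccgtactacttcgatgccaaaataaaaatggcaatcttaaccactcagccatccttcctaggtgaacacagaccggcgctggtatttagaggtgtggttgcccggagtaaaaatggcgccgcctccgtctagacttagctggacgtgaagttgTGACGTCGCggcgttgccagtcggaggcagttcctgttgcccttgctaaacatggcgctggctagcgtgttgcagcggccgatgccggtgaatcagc
Psmb6: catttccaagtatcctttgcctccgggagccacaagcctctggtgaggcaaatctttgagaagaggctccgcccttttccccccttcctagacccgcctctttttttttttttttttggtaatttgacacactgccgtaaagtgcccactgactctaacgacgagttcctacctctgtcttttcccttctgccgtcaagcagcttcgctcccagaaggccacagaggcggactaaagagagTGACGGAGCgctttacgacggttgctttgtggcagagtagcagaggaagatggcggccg

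In a search of both strands, TGACNNNGC lay in 15.4% of the 39 member promoters and 12.5% of all 27025, and CCAAT in 35.9% and 37.9%. The members with TGACNNNGC were Psmb5, Psmb6, Psmc6, Psmd9, Psmd12 and Psme4. The core of the interferon-stimulated response element (GAAA, 2 free bases, GAAA) lay in 10.3% of member promoters (Psmb3, Psmd4, Psmd9 and Psmg4) and 3.49% of all. TTCNNNGAA, the core of the gamma-activated site, lay in 5.13% (Psmd2 and Psmg1) and 8.47%, and TTTGAA, letters of the cell cycle homology region, in 7.69% (Psmd1, Psmd8 and Psmd10) and 18.1%. The windows of Psmb9, Psmb10 and Psme2 held neither interferon-related motif; a match or its absence describes letters only.

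The libraries held 1099 to 7955 cells and 3825958 to 27967273 UMIs, and pairs of libraries shared 0 to 10 cell barcodes. Median UMIs per cell were 1683 (naive), 3133 (untreated), 4797 (antibody), 5208.5 (depletion) and 2468 (both). Foxp3, the lineage factor of Tregs, had a UMI in 58.7% of depletion cells and 38.0% of both-treatment cells, against 0.905% to 1.46% in the other libraries. After toxin, 21.4% and 18.6% of Foxp3-positive cells held a UMI of a SMARTA receptor variable gene, against 54.9% and 49.2% of Foxp3-negative cells. The labels do not settle whether the Foxp3-positive cells are SMARTA cells, so each comparison by Foxp3 status below may set cells of different origin against each other. All 5 listed CD4 T cell markers (of 12 chosen) were detected in every library, at levels given in CPM (UMI counts scaled to the same library total). They summed to 2343, 2660 and 2199 CPM in naive, untreated and antibody cells, and to 1384 and 1279 in the depletion and both-treatment libraries. Summed B cell markers (9 genes, of which 4 were at 0 in untreated cells) reached 4710 and 2928 CPM in the latter 2 libraries against 346 to 751 in the others. The part of the B cell markers in the results was not tested beyond the alternatives given below.

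In CPM of the UMIs of all listed genes, the 46 members summed to 10520 in naive cells, 13910 in untreated, 16620 in antibody, 19110 in depletion and 16980 in both-treatment cells. Each tumor-side library was above the naive one, and the depletion library was highest. The 14 alpha and constitutive beta ring genes summed to 4936 CPM in naive cells and 7117, 8924, 9838 and 8738 in the tumor-side libraries, and the 17 subunits of the 19S particle to 3452 and 3980, 4755, 5275 and 4833. The 7 assembly chaperones spanned a narrower range, 562 CPM in naive cells and 657, 672, 601 and 601 in the others. With 1 library per group no test between groups was possible, and the 95% intervals given for library comparisons cover counting error only.

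Psmb9 (chr17:34181987-34187764) stood at 302, 672, 721.5, 1046 and 902 CPM in naive, untreated, antibody, depletion and both-treatment cells. Psmb6 (chr11:70525367-70527858), its constitutive counterpart, stood at 328, 367, 487, 535.5 and 490.2 CPM. Both were lowest in naive cells and highest after depletion, and the untreated library stood farther above the naive one for Psmb9 than for Psmb6. Psmb10 (chr8:105935735-105938444) stood at 324, 336, 335, 472 and 403 CPM, so that the naive, untreated and antibody libraries lay close together and the 2 libraries given toxin were higher. Psmb7 (chr2:38588036-38644087), which Psmb10 replaces, stood at 109, 233, 310.2, 362 and 307 CPM, lowest in naive cells. Psmb5 (chr14:54614119-54618022), whose immunoproteasome counterpart was not analysed here, stood at 339.6, 352, 447.5, 625.5 and 544 CPM, with naive and untreated cells lowest.

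Psme2 (chr14:55587441-55591113) was found at 727, 877, 945, 1569 and 1225 CPM across the libraries, again from naive to both treatments, and was highest in the 2 libraries given toxin. Psme2b (chr11:48945354-48946190), a retrogene copy of Psme2, stood at 37.3, 44.2, 22.4, 25.3 and 15.0 CPM, lower in all 3 treated libraries than in naive or untreated cells. Of the 31-base words in the last 300 bases of Psme2b transcripts 70.7% also occur in Psme2, so reads of this pair cannot be fully told apart. Psmb5 shares 62.9% of its end words with other genes, Psma5 49.5% and Psmc1 41.8%, and their counts are likewise uncertain.

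**Figure D1:**
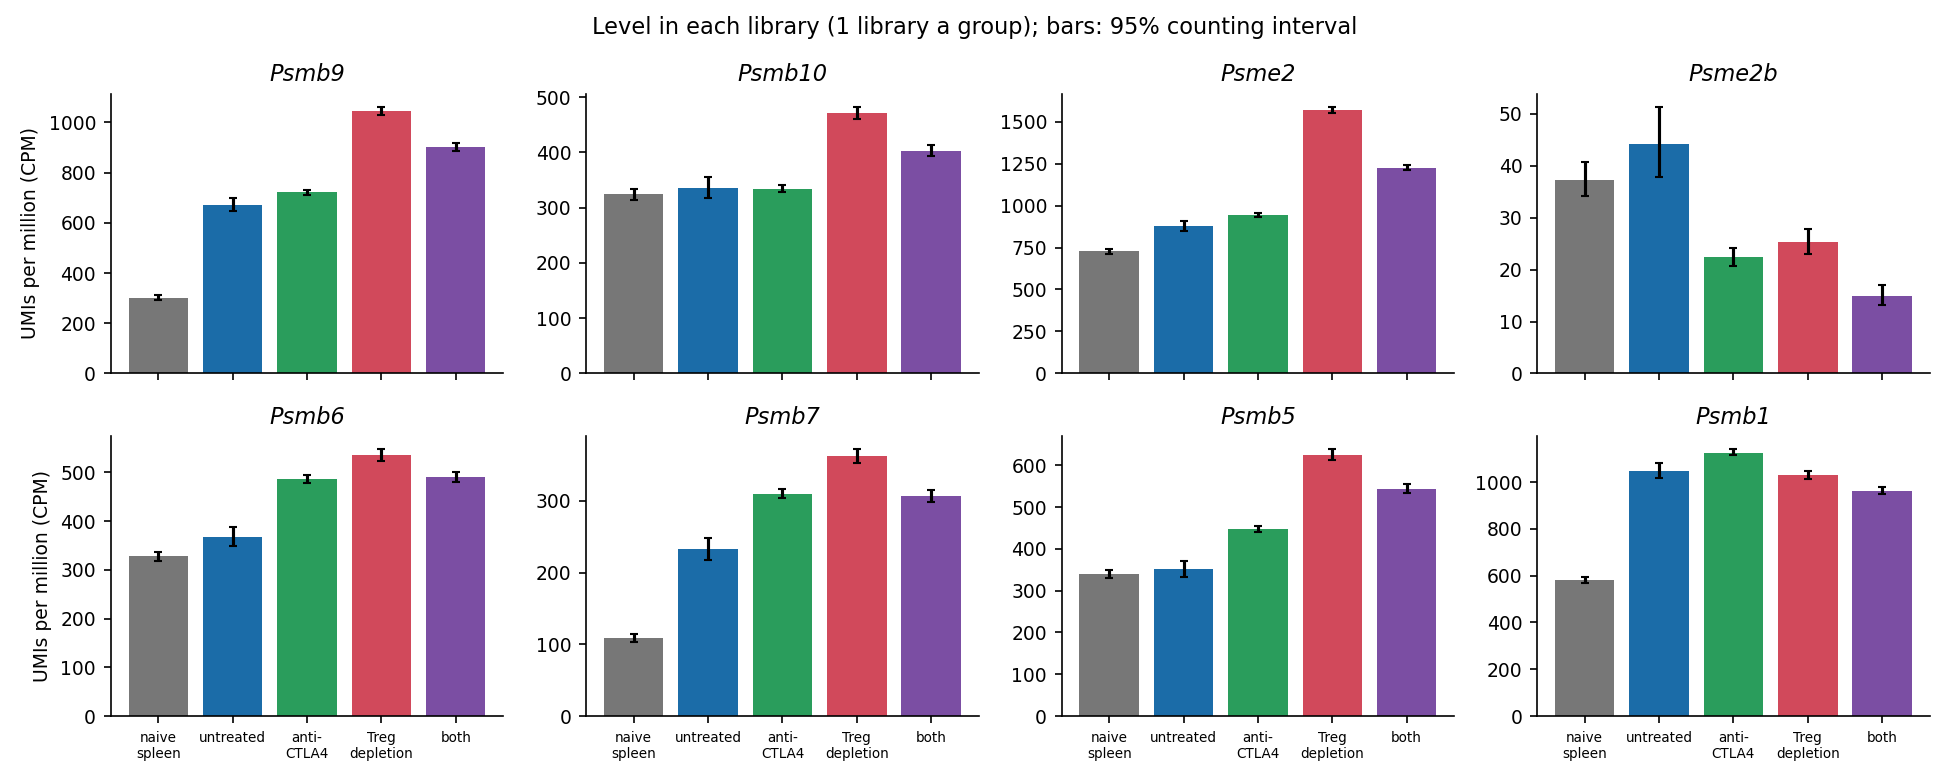
Level of members in each library, in CPM of the UMIs of all listed genes; bars are the 5 libraries, 1 per group, and error bars the exact 95% Poisson interval. Psmb9 goes from 302 in naive cells to 1046 after depletion, while Psmb10 is highest in the 2 libraries given toxin, at 472 and 403.

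Against naive cells, the untreated library held more of the 20S core. Members whose mean was 25 CPM or more, with 30 UMIs or more over both libraries, counted as measured, and the call was set at 1.5-fold. Of 45 measured members, 10 were at least 1.5-fold higher and 0 lower, against 12.8% of all 6814 measured genes higher and 16.9% lower. They were Psmb9, 4 of 7 alpha ring genes (Psma2, Psma4, Psma5, Psma6), 4 of 7 constitutive beta ring genes (Psmb1, Psmb2, Psmb4, Psmb7) and the core assembly chaperone Psmg1. None of the 17 subunits of the 19S particle was among them.

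The highest ratios to naive cells were those of Psmb9 at 2.23-fold (2.12 to 2.34), Psmb7 at 2.14-fold (1.97 to 2.325) and Psma4, an alpha ring subunit, at 1.955-fold (1.86 to 2.06). The lowest were those of Psme4, which encodes the PA200 activator, at 0.667-fold (0.547 to 0.809), Psmd11, a subunit of the 19S lid, at 0.852-fold (0.792 to 0.916) and the chaperone Psmg2 at 0.829-fold (0.738 to 0.930). Psmb10 was at 1.04-fold (0.975 to 1.105), Psmb5 at 1.04-fold (0.976 to 1.10), Psmb6 at 1.12-fold (1.055 to 1.19) and Psme2 at 1.21-fold (1.16 to 1.255). The interval lay above 1 for 32 members and below 1 for 3, against 32.5% and 40.0% of all genes. The median log2 ratio was 0.27 over the members and -0.060 over all measured genes. Among alpha ring genes it was 0.61, among constitutive beta ring genes 0.59, among base ATPases 0.28 and among the other 19S subunits 0.16.

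With antibody alone, most members were slightly above the untreated library. Psma6, an alpha ring gene, at 1.51-fold (1.44 to 1.59) and Psmc3ip at 2.215-fold (1.73 to 2.88) reached 1.5-fold. That was 2 of 46 members, close to the 5.46% of 6644 genes. Psme2b was lower, at 0.5075-fold (0.428 to 0.605), 1 of 46 against 6.62% of genes. The interval lay above 1 for 35 members and below 1 for 2, where 23.8% of all genes lay above and 37.9% below. Psmd13, a subunit of the 19S lid, was the third highest at 1.46-fold (1.355 to 1.57), and the chaperone Psmg4 was at 0.854-fold (0.785 to 0.929).

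In this comparison the ratios of the constitutive catalytic genes were above those of their immunoproteasome counterparts. Psmb5 was at 1.27-fold (1.20 to 1.34), Psmb6 at 1.325-fold (1.25 to 1.40) and Psmb7 at 1.33-fold (1.24 to 1.43) of the untreated level. Psmb9 was at 1.07-fold (1.03 to 1.12), Psmb10 at 0.995-fold (0.938 to 1.055) and Psme2 at 1.08-fold (1.04 to 1.12). The median log2 ratio was 0.24 over the members and -0.074 over all genes.

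After depletion, both constitutive and immunoproteasome catalytic genes stood above the untreated library. Of 46 members, 10 were at least 1.5-fold higher, against 12.2% of 6529 genes, and 1 was lower, against 27.5%. The highest were Psmc3ip at 2.43-fold (1.89 to 3.175), Psmd13 at 1.865-fold (1.73 to 2.01) and Psme2 at 1.79-fold (1.73 to 1.86). The others past 1.5-fold were Psmb2, Psmb3, Psmb4, Psmb5, Psmb7, Psmb9 and the base ATPase Psmc3. Psmb5 was at 1.775-fold (1.68 to 1.88), Psmb7 at 1.56-fold (1.45 to 1.67), Psmb9 at 1.56-fold (1.49 to 1.62), Psmb6 at 1.46-fold (1.38 to 1.54) and Psmb10 at 1.40-fold (1.32 to 1.49).

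The lowest members after depletion were Psme2b at 0.573-fold (0.478 to 0.690) and the 19S chaperones Psmd10 at 0.773-fold (0.685 to 0.873) and Psmd5 at 0.7755-fold (0.6705 to 0.900). The core chaperones Psmg1 and Psmg2 also had intervals below 1. Of all members, 37 had an interval above 1 and 5 below 1, against 27.3% and 52% of all genes, and the median log2 ratio was 0.435 over the members and -0.21 over all genes. Scaling by edgeR's TMM factors in place of library totals gave 28 members at least 1.5-fold higher and a median of 0.71. These factors (0.887 for depletion and 1.07 for untreated) raise the ratio of every gene alike. The share of all genes past 1.5-fold on that scale is not given here. In cells with no Foxp3 UMI and no mitotic-gene call, a call described with the cycling test, 3 of 45 members were at least 1.5-fold higher. That was close to the 5.03% of 6543 genes, and the median was 0.16 over the members and -0.12 over all genes.

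**Figure D2:**
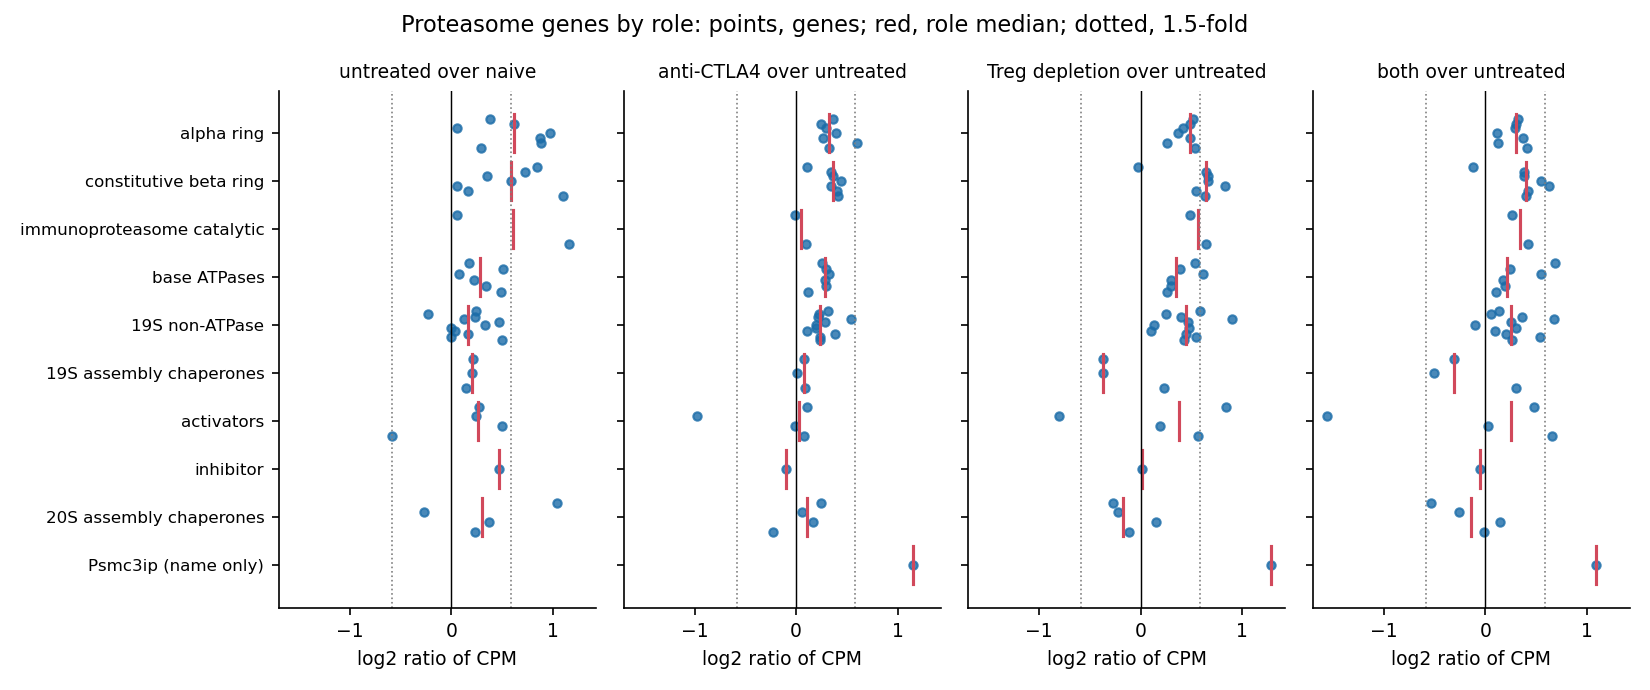
Log2 ratio of CPM between libraries (x axis) for each measured member, grouped by role (y axis), in 4 comparisons; points are genes, bars role medians, and dotted lines 1.5-fold in either direction. Against naive cells Psmb9 lies farthest to the right, and the alpha ring, immunoproteasome and constitutive beta ring genes have role medians of 0.61, 0.60 and 0.59, while the chaperone medians lie below 0 after depletion, at -0.37 and -0.17.

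With both treatments, 5 of 46 members were at least 1.5-fold above the untreated library, close to the 10.6% of 6614 genes. In the other direction 1 was lower, against 18.2%. The higher ones were Psmc3ip at 2.13-fold (1.66 to 2.79), the base ATPase Psmc1 at 1.61-fold (1.48 to 1.77), Psmd13 at 1.60-fold (1.48 to 1.725), Psme4 at 1.575-fold (1.305 to 1.92) and Psmb5 at 1.545-fold (1.46 to 1.64). Psme2b at 0.340-fold (0.278 to 0.415), Psmg1 at 0.692-fold (0.614 to 0.781) and Psmd5 at 0.705-fold (0.609 to 0.819) were lowest. Psme2 was at 1.40-fold (1.35 to 1.45), Psmb9 at 1.34-fold (1.29 to 1.40), Psmb6 at 1.335-fold (1.26 to 1.41), Psmb7 at 1.32-fold (1.23 to 1.42) and Psmb10 at 1.20-fold (1.13 to 1.27). Intervals lay above 1 for 34 members and below 1 for 6 (26.0% and 48.0% of all genes), and the median log2 ratio was 0.26 over the members and -0.16 over all genes.

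Without the Foxp3-positive cells, several of these directions turned. In cells with no Foxp3 UMI the median of the members against untreated was -0.053, with Psme2 at 0.857-fold, Psmb9 at 0.954-fold and Psmb7 at 0.973-fold. Psmb10 was at 1.14-fold and Psmb5 at 1.17-fold in these cells. Foxp3-negative cells of the both-treatment library had a median of 1952.5 UMIs against 3133 in the untreated library, and the part of depth in this result was not tested.

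The library with both treatments was also set against each single treatment. Against antibody alone, 0 of 45 members were at least 1.5-fold higher and 1 was lower, where 7.81% of 6514 genes were higher and 9.64% lower. Psmg1 at 0.583-fold (0.544 to 0.625), Psma6 at 0.721-fold (0.702 to 0.741) and Psmd5 at 0.698-fold (0.640 to 0.761) were lowest, and Psme4 at 1.496-fold (1.36 to 1.64), just under the threshold, Psmc1 at 1.35-fold (1.295 to 1.41) and Psme2 at 1.297-fold (1.27 to 1.32) were highest. Psmb9 was at 1.25-fold (1.22 to 1.28), Psmb5 at 1.22-fold (1.18 to 1.25) and Psmb10 at 1.205-fold (1.17 to 1.24), while Psmb6 at 1.01-fold (0.980 to 1.04) and Psmb7 at 0.989-fold (0.956 to 1.02) had intervals that include 1. The interval lay above 1 for 18 members and below 1 for 13, against 31.3% and 45.8% of genes. In cells with no Foxp3 UMI, Psme2 was at 0.794-fold, Psmb9 at 0.893-fold, Psmb5 at 0.926-fold and Psmb10 at 1.13-fold.

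Against depletion alone, the both-treatment library had lower levels of most members. None of 45 was past 1.5-fold in either direction (4.44% of 6261 genes were higher and 0.99% lower), but the interval lay below 1 for 33 members and above 1 for 2, where 26.1% of genes lay below and 35.0% above. Psmd1, the large scaffold subunit of the 19S base, at 0.734-fold (0.697 to 0.774), Psme2 at 0.781-fold (0.767 to 0.796) and Psmb3 at 0.825-fold (0.8065 to 0.845) were lowest. Psmc1 at 1.12-fold (1.07 to 1.17), Psmg4 at 1.07-fold (1.02 to 1.13) and Psmd9 at 1.05-fold (0.985 to 1.125) were highest. Psmb9 was at 0.862-fold (0.8435 to 0.881), Psmb10 at 0.854-fold (0.8265 to 0.883), Psmb5 at 0.870-fold (0.846 to 0.895), Psmb6 at 0.9155-fold (0.888 to 0.944) and Psmb7 at 0.847-fold (0.816 to 0.879). The median log2 ratio of the members was -0.145, and the cells used moved it. It was -0.34 in cells with no Foxp3 UMI, where 2 of 44 members were at least 1.5-fold lower (5.15% of genes). In those that also held a receptor variable gene UMI it was -0.47, and 6 of 44 were lower (8.18% of genes). In cells not called by the 52-gene list of cycling genes described below it was -0.024.

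The antibody contrast ran in opposite directions for most members in the absence and presence of toxin. Of 45 members measured in both contrasts, 31 were higher with antibody in mice without toxin and lower with antibody in mice given toxin, by intervals that exclude 1, and 1 was the other way round. Over the 5938 genes measured in both, 14.3% were higher and then lower, and 23.7% lower and then higher. In cells with no Foxp3 UMI and no mitotic-gene call the count was 28 of 44 members, against 12.5% of genes. The difference between the contrasts was not tested, since each of the 4 groups has 1 library. Median UMIs per cell ran in the same directions, at 4797 with antibody against 3133 untreated, and 2468 with both treatments against 5208.5 after depletion. Levels by depth are given below, and the part of depth in these contrasts was not tested.

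Other genes of the pathway were described in the same way. Of 25 measured partner genes (ubiquitin, shuttle factors, deubiquitinases and regulators of proteasome genes), 1 was at least 1.5-fold higher after depletion and 3 were lower, where 12.2% of all genes were higher and 27.5% lower. Uchl5, a deubiquitinase of the 19S particle, was at 1.90-fold (1.67 to 2.17). Of 22 genes of antigen processing and its regulators, 9 were higher and 4 lower, against the same shares. The guanylate-binding protein genes Gbp7 at 7.99-fold (6.94 to 9.235) and Gbp2 at 5.33-fold (4.66 to 6.12), and Ifngr1 at 3.59-fold (3.21 to 4.03) and Ifngr2 at 0.3115-fold (0.258 to 0.376), which encode the interferon gamma receptor, had the largest log2 ratios in size. With antibody alone 0 of these genes were higher and 5 lower (5.46% and 6.62% of all genes), among them Irf1, a transcription factor of the interferon response, at 0.573-fold (0.526 to 0.625).

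Cycling was called first with 52 listed G2 and M phase genes, as at least 2 of them in a cell thinned to 1000 UMIs. Cells under 1000 UMIs were left out of this call and of the narrower one below. The shares of cells called are of the remaining cells. That call marked 81.6% to 89.9% of cells in every library, the naive one included, and its list holds genes such as Hmgb2 (a UMI in 26.4% of thinned naive cells) and Smc4 (53.9%). With it, in edgeR's quasi-likelihood test on UMIs summed per library and state with library as a block, 0 of 46 members were higher and 0 lower at an adjusted p of 0.05 (2.57% of 10052 genes were higher and 1.27% lower). At an unadjusted p of 0.05, 18 members passed, as did 2045 of the 10052 genes. DESeq2 called 2 members higher (3.32% of genes), and edgeR called 6 without the naive library (7.43%). A narrower call, chosen after these shares had been seen, used the 33 of the 52 genes seen in under 1% of thinned naive cells. It marked 0.141% of naive, 5.385% of untreated, 25.2% of antibody, 39.75% of depletion and 30.3% of both-treatment cells. Mitotic-gene-positive cells were compared with negative ones within the 4 tumor-side libraries.

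In mitotic-gene-positive cells, core and 19S genes were higher, while Psmb10 and Psme2 did not pass the test. In edgeR's quasi-likelihood test with TMM scaling, 35 of 46 members were higher and 0 lower, against 20.3% of 11206 genes higher and 19.5% lower, with a median log2 difference of 0.47 over the members. All 7 alpha ring genes, 6 of 7 constitutive beta ring genes, all 6 base ATPases and 9 of 11 other 19S subunits rose. Of the 4 activator genes 1 rose (Psme3), and of the 7 assembly chaperones 3. Psmb1, Psmb10, Psmd4, Psmd5, Psmd8, Psmd10, Psme2, Psme2b, Psme4, Psmg3 and Psmg4 did not pass.

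Psmc1 stood at 189, 212, 245 and 287 CPM in positive and 140.1, 144, 151 and 172 CPM in negative cells of the untreated, antibody, depletion and both-treatment libraries. It was higher in positive cells of all 4 libraries, with a log2 difference of 0.80 ± 0.10 (SE) in edgeR's test (adjusted p = 0.000482). Psmd1 stood at 141, 207.5, 240.1 and 188 CPM against 136, 141, 146 and 106, with a difference of 0.77 ± 0.135 (adjusted p = 0.00251). Its levels were closest in the untreated library, which held 58 positive cells. Psmc3ip stood at 39.95, 61.5, 59.5 and 54.9 CPM against 14.9, 22.4, 15.3 and 17.2, with the largest difference of the 46 genes, 1.84 ± 0.13 (adjusted p = 8.59e-06). The smallest differences that passed were those of Psmd9 (0.35 ± 0.095), Psmf1 (0.35 ± 0.098) and Psmb9 (0.35 ± 0.10).

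Psmb7 stood at 282, 366, 402 and 369 CPM in positive and 227, 269.8, 299 and 238 CPM in negative cells, a log2 difference of 0.64 ± 0.11 (edgeR, adjusted p = 0.00179). The other constitutive catalytic genes, Psmb6 and Psmb5, differed by 0.53 ± 0.10 (adjusted p = 0.00421) and 0.50 ± 0.10 (adjusted p = 0.00543). Psmb10 stood at 285, 285, 440.1 and 391 CPM against 340.2, 370.4, 524 and 421, lower in positive cells of all 4 libraries on the CPM scale, with a difference of -0.069 ± 0.10 on the TMM scale (adjusted p = 0.610). Psme2 stood at 895, 844, 1526 and 1300 CPM against 878, 1017, 1643 and 1157, higher in 2 libraries and lower in 2 (0.13 ± 0.11, adjusted p = 0.370). Psmb9 stood at 732.5, 756, 1076 and 1004 CPM against 666, 697, 1001 and 791, higher in all 4 libraries (adjusted p = 0.02315).

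**Figure D3:**
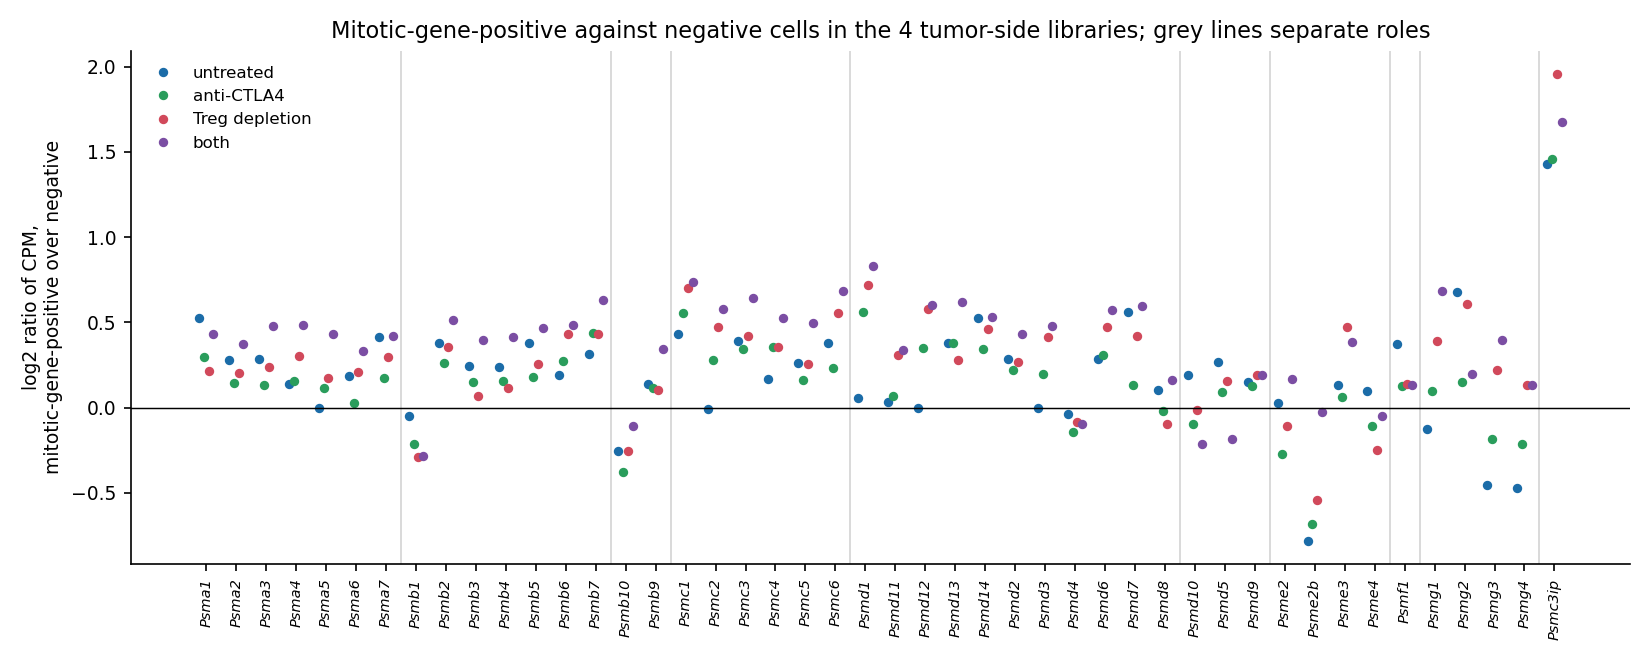
Log2 ratio of CPM between mitotic-gene-positive and negative cells for each of the 46 members, by role, with 1 point per tumor-side library. All 4 points lie above 0 for 5 of the 6 base ATPases and below 0 for Psmb1, Psmb10, Psmd4 and Psme2b, and Psmc3ip is highest, with log2 ratios from 1.43 to 1.96.

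The scale bears on these directions. With library totals in place of TMM factors the median of all genes was -0.24. In edgeR's test 25 members were then higher and 2 lower, against 13.7% of all genes higher and 32.2% lower. The lower ones were Psmb10 (-0.25 ± 0.087, adjusted p = 0.0465) and Psme2b (-0.47 ± 0.16, adjusted p = 0.0391). Positive cells were also deeper, with median UMIs of 5198 against 3097 (untreated), 9372 against 4161 (antibody), 10310 against 4092 (depletion) and 5958 against 2274 (both). Among cells of 4000 to 8000 UMIs, 10 of 46 members were higher (10.7% of genes), with a median of 0.125. In sums of cells thinned to equal depth 32 were higher (16.8% of genes), with a median of 0.42. Without the library block 9 were higher (10.6% of genes, median 0.46), and without the depletion library 18 (11.2% of genes, median 0.44).

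The summed level of the members was higher in deeper cells of the tumor-side libraries. In mitotic-gene-negative cells of the antibody library it was 12230 CPM at 1000 to 2000 UMIs, 13920 at 2000 to 4000 and 16070 at 4000 to 8000 UMIs. In the depletion library it was 12980, 15500 and 18040 CPM, and in the both-treatment library 12350, 13760 and 17640. Naive cells showed no such step, with 10510 and 10510 CPM in the 2 lower bins. Between 4000 and 8000 UMIs, positive and negative cells had 16220 and 16070 CPM with antibody, 17660 and 17640 with both treatments, and 19260 and 18040 after depletion. Between 2000 and 4000 UMIs positive cells were higher in each of these libraries, at 14810 against 13920, 15810 against 13760 and 16360 against 15500 CPM. From 8000 UMIs they were lower with antibody, at 17670 against 19020, and higher after depletion, at 20230 against 19740. The part of depth in the difference by mitotic genes was not tested beyond these values.

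Foxp3 status was compared within the 2 libraries given toxin, where 1284 of 2186 and 1649 of 4343 cells had a Foxp3 UMI. Psme2 stood at 1788 CPM in Foxp3-positive and 1054 in Foxp3-negative cells after depletion, and at 1516 and 749 with both treatments. Psmb9 stood at 1145 and 813 CPM after depletion, and at 1060 and 644 with both. These genes were higher in Foxp3-positive cells of both libraries, with log2 differences of 1.09 ± 0.25 (SE; edgeR, adjusted p = 0.006985) and 0.80 ± 0.23 (adjusted p = 0.02005). Psmb10 stood at 489 and 432.5 CPM after depletion, and at 418 and 378 with both, a difference of 0.36 ± 0.19 that did not pass (edgeR, adjusted p = 0.1665).

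In this test 19 of 46 members were higher and 0 lower, against 16.6% of 11294 genes higher and 19% lower, and the median of the members was 0.50. They included 5 of 6 base ATPases and 6 of 11 other 19S subunits, 3 of 7 constitutive beta ring genes, 1 of 7 alpha ring genes and none of the 7 assembly chaperones. Psmc3ip (1.26 ± 0.18; edgeR, adjusted p = 0.000418), Psme2 and Psmb9 had the largest differences, and Psmd6 (0.51 ± 0.18), Psmd3 (0.52 ± 0.17) and Psmc5 (0.535 ± 0.19) the smallest that passed. Psmb7 (0.625 ± 0.20; edgeR, adjusted p = 0.0300) and Psmb5 (0.60 ± 0.21, adjusted p = 0.0488) passed, and Psmb6 did not (0.465 ± 0.20, adjusted p = 0.0961). The test has 1 residual degree of freedom. Its count was 6 with library totals (11.4% of all genes higher, member median 0.30). It was 11 with upper quartile factors (14.4% of genes, median 0.45) and 4 without the library block (8.36% of genes, median 0.47). Among cells with a SMARTA receptor variable gene UMI it was 1 (5.42% of genes), with the median at 0.50 and 44 of 46 differences above 0. Over all 4 libraries with at least 50 Foxp3-positive cells it was 1 (4.74% of genes), with a median of 0.28. Under these settings, apart from upper quartile factors, the share of members called was near or below that of all genes. In sums of cells thinned to equal depth the count was 27 (16.9% of genes, median 0.45), and in cells of 4000 to 8000 UMIs 11 (13% of genes, median 0.24).

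Foxp3-positive cells held more mitotic-gene-positive ones, 50.9% against 23.7% after depletion and 53.7% against 14.4% with both treatments. They were also deeper, at a median of 6611.5 against 3835.5 and 4599 against 1952.5 UMIs. Both splits were therefore fitted together over the same 2 libraries in edgeR, each averaged over the other. The fit used 8 sums from these 2 libraries and has 3 residual degrees of freedom. They come from splitting the same libraries further, so smaller SEs and more calls than in the test above are no added replication. The Foxp3 term then called 36 of 46 members higher and 0 lower (22.0% of 10803 genes higher, 19.7% lower), and the mitotic term 35 higher and 0 lower (23.5% and 26.1%). Of the members, 29 passed in both terms and 4 in neither, counts for which the shares over all genes are not given here. The interaction of the terms called 0 members higher and 0 lower in edgeR (0.0833% of genes higher and 2.23% lower), and DESeq2 called 0 and 0. At an unadjusted p of 0.05 in edgeR, 9 members passed, as did 1522 of the 10803 genes. Its median was -0.29 over the members and -0.082 over all genes, with 4 of 46 members above 0. In separate tests, the Foxp3 difference had a member median of 0.46 in mitotic-gene-negative and 0.19 in mitotic-gene-positive cells. They called 16 and 4 of 46 members higher (15.5% and 7.81% of genes). With the 52-gene list in place of the mitotic-gene call, the Foxp3 term called 33 members higher (16.7% of 10558 genes). The cycling term called 3 higher and 0 lower (9.38% and 4.45%), and the interaction 0 higher and 0 lower (0.0284% and 0.0%). With that list the interaction had a member median of 0.18, against 0.029 over all genes, and 37 of 46 members were above 0. Its sign was thus opposite to that with the mitotic-gene call.

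Psme2 had a Foxp3 difference of 1.10 ± 0.093 (edgeR, adjusted p = 7.82e-06) and a mitotic difference of -0.033 ± 0.092 (adjusted p = 0.787). For Psmb9 the values were 0.745 ± 0.086 (adjusted p = 6.91e-05) and 0.185 ± 0.085 (adjusted p = 0.0957), and for Psmb10 0.415 ± 0.080 (adjusted p = 0.00203) and -0.14 ± 0.080 (adjusted p = 0.179). On the TMM scale these 3 genes passed in the Foxp3 term and not in the mitotic one. The constitutive catalytic genes passed in both on that scale: Psmb6 had 0.29 ± 0.078 (adjusted p = 0.0136) and 0.55 ± 0.079 (adjusted p = 0.000231), Psmb7 0.43 ± 0.087 and 0.59 ± 0.087, and Psmb5 0.46 ± 0.090 and 0.395 ± 0.090. Psmd1 and Psmc1 had the largest mitotic differences after Psmc3ip (1.88 ± 0.13), at 0.80 ± 0.077 and 0.77 ± 0.077. The smallest Foxp3 differences that passed were those of Psmd2 (0.26 ± 0.078), Psmd11 (0.285 ± 0.075) and Psmb6, and the smallest mitotic ones those of Psmf1 (0.26 ± 0.090), Psmb3 (0.29 ± 0.096) and Psma6 (0.31 ± 0.086).

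**Figure D4:**
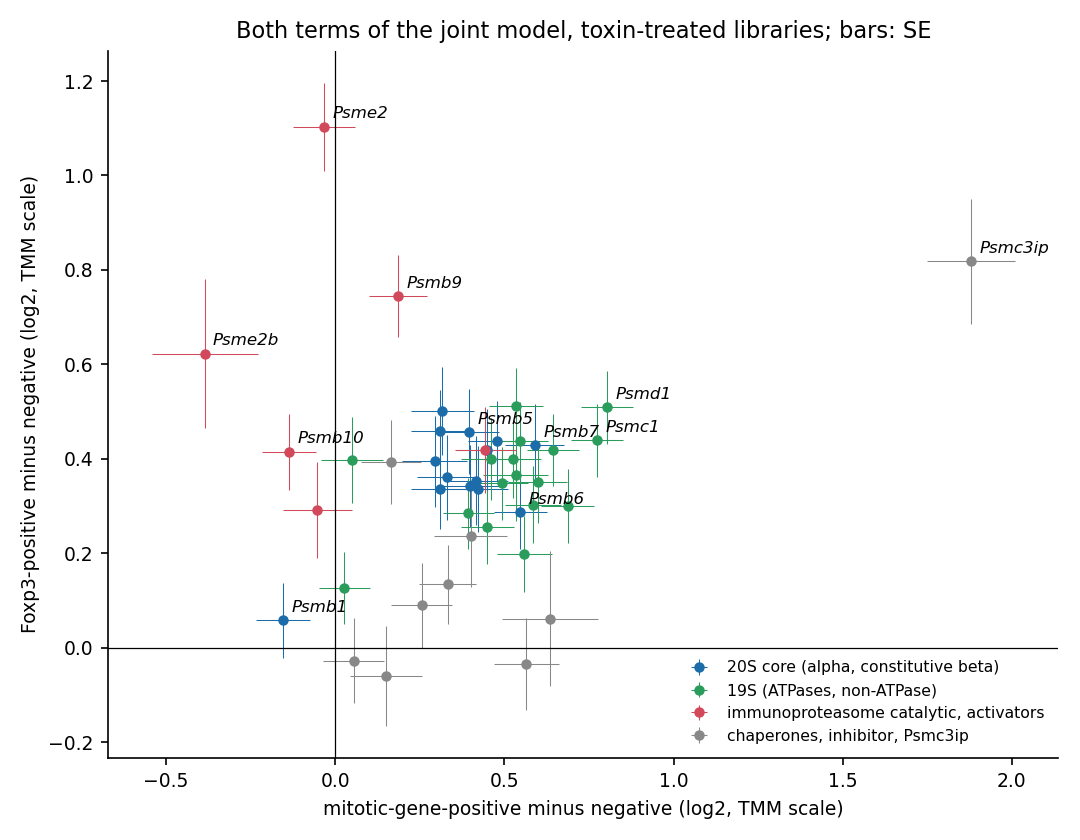
Difference by mitotic-gene call and by Foxp3 status for the 46 members in the joint model of the 2 libraries given toxin, in log2 units on the TMM scale; points are genes, coloured by role, and bars are 1 SE. Psme2 (1.10) and Psmb9 (0.745) have high Foxp3 differences and mitotic differences of -0.033 and 0.185, and Psmc3ip has the highest mitotic difference, 1.88.

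With library totals in place of TMM factors, the Foxp3 term called 17 members higher and 0 lower in edgeR (13.1% and 31.4% of all genes). The mitotic term called 29 higher and 3 lower (19% and 33.3%). Psme2 (0.93 ± 0.090, adjusted p = 3.00e-05), Psmb9 (0.57 ± 0.083, adjusted p = 0.000405) and Psmb10 (0.24 ± 0.078, adjusted p = 0.0303) still passed in the Foxp3 term on that scale, as did Psmb5 (0.28 ± 0.089) and Psmb7 (0.25 ± 0.085), while Psmb6 no longer did (0.11 ± 0.076, adjusted p = 0.257). The 3 lower by the mitotic term were Psmb1 (-0.26 ± 0.076; edgeR, adjusted p = 0.0148), Psmb10 (-0.24 ± 0.078, adjusted p = 0.0238) and Psme2b (-0.49 ± 0.155, adjusted p = 0.0217). In mitotic-gene-negative cells alone, Psme2 stood at 2118 CPM in Foxp3-positive and 1060 in Foxp3-negative cells after depletion, and at 1884 and 717 with both treatments. In mitotic-gene-positive cells it stood at 1649 and 1050, and at 1385 and 867 CPM. Foxp3-positive cells were thus higher on both sides of the mitotic split, with an interaction of -0.65 ± 0.18 (edgeR, adjusted p = 0.117). Psmb1, a noncatalytic beta ring gene, stood at 987 against 1134 and 906 against 1053 CPM in Foxp3-positive and negative cells, and did not pass in either term (0.058 ± 0.079 and -0.15 ± 0.079).

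The naive and antibody libraries held 72 and 54 Foxp3-positive cells. Psmb9 stood at 515 CPM in Foxp3-positive and 299.6 CPM in Foxp3-negative naive cells (ratio 1.72, 1.35 to 2.165), and at 771 and 721 in the antibody library (ratio 1.07, 0.9625 to 1.19). Psme2 did not differ beyond counting error in naive cells, at 731 and 726.5 CPM (ratio 1.01, 0.822 to 1.22), or with antibody, at 1017 and 943 CPM (ratio 1.08, 0.983 to 1.18).

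Among genes of antigen processing, 16 of 22 were higher and 2 lower by the Foxp3 term of the joint model (22.0% and 19.7% of all genes), with the largest differences in Gbp2 (2.19 ± 0.11), Gbp7 (2.16 ± 0.105) and Gbp4 (1.25 ± 0.088). Tap1, the peptide transporter gene beside Psmb9, was higher by 0.96 ± 0.087 (edgeR, adjusted p = 1.27e-05). By the mitotic term 3 of them were higher and 13 lower (23.5% and 26.1% of all genes). The kinase gene Jak2 (-1.10 ± 0.115) and the transcription factor gene Stat2 (-0.90 ± 0.12) fell most, and Canx, which encodes the chaperone calnexin, rose (0.845 ± 0.079). Of 25 partner genes the Foxp3 term called 9 higher and 2 lower, and the mitotic term 7 higher and 4 lower, to be read against the same background shares for each term. The deubiquitinase genes of the 19S particle, Uchl5 (1.265 ± 0.10) and Usp14 (0.88 ± 0.095), had the largest mitotic differences among the partners.

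The share of each catalytic pair held by its immunoproteasome gene differed between naive and tumor-side cells in opposite directions for the 2 pairs. Psmb9 made up 47.9% (46.9 to 49.0) of the UMIs of Psmb9 and Psmb6 in naive cells (exact 95% binomial interval), and 64.7%, 59.7%, 66.1% and 64.8% in untreated, antibody, depletion and both-treatment cells. Psmb10 made up 74.85% (73.7 to 75.95) of the UMIs of Psmb10 and Psmb7 in naive cells, and 59.1%, 51.9%, 56.6% and 56.8% in the others. All 4 tumor-side libraries were thus above the naive share for the first pair and below it for the second, and the antibody library had the lowest tumor-side share in both pairs.

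Mitotic-gene-positive cells had lower shares than negative ones in all 4 tumor-side libraries. The share of Psmb10 was 50.2%, 43.8%, 52.25% and 51.4% in positive and 60.0%, 57.9%, 63.7% and 63.9% in negative cells of the untreated, antibody, depletion and both-treatment libraries. It was lower by 11.9 ± 1.80 percentage points (SD, n = 4 libraries; exact two-sided sign-flip permutation p = 0.125, the smallest that 4 libraries can give). The share of Psmb9 was lower by 2.66 ± 1.74 points, in 4 of 4 libraries, with the same exact permutation p.

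By Foxp3 status the pairs differed from each other. Among mitotic-gene-negative cells, the share of Psmb9 was 71.8% (70.6 to 73.0) in Foxp3-positive and 65.5% (63.9 to 67.1) in Foxp3-negative cells after depletion, and 70.8% (69.4 to 72.1) and 61.8% (60.4 to 63.2) with both treatments. The share of Psmb10 was 63.9% (62.2 to 65.65) and 63.35% (61.2 to 65.4) after depletion, and 61.6% (59.6 to 63.7) and 65.7% (63.9 to 67.5) with both treatments. The intervals of the classes were apart for Psmb9 in both libraries. For Psmb10 they overlapped after depletion, and with both treatments were apart with Foxp3-positive cells lower. Among mitotic-gene-positive cells the Psmb9 share was 65.8% (65.0 to 66.6) in Foxp3-positive and 58.0% (56.2 to 59.8) in Foxp3-negative cells after depletion, and 64.7% (63.8 to 65.5) and 58.95% (56.7 to 61.15) with both treatments, again with intervals apart. The Psmb10 share there was 53.1% (51.9 to 54.3) against 48.7% (46.2 to 51.1) after depletion, apart with Foxp3-positive cells higher, and 51.2% (49.9 to 52.4) against 52.9% (49.8 to 56.0) with both treatments, which overlap. No test of these shares was made, since 2 libraries carry them.

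**Figure D5:**
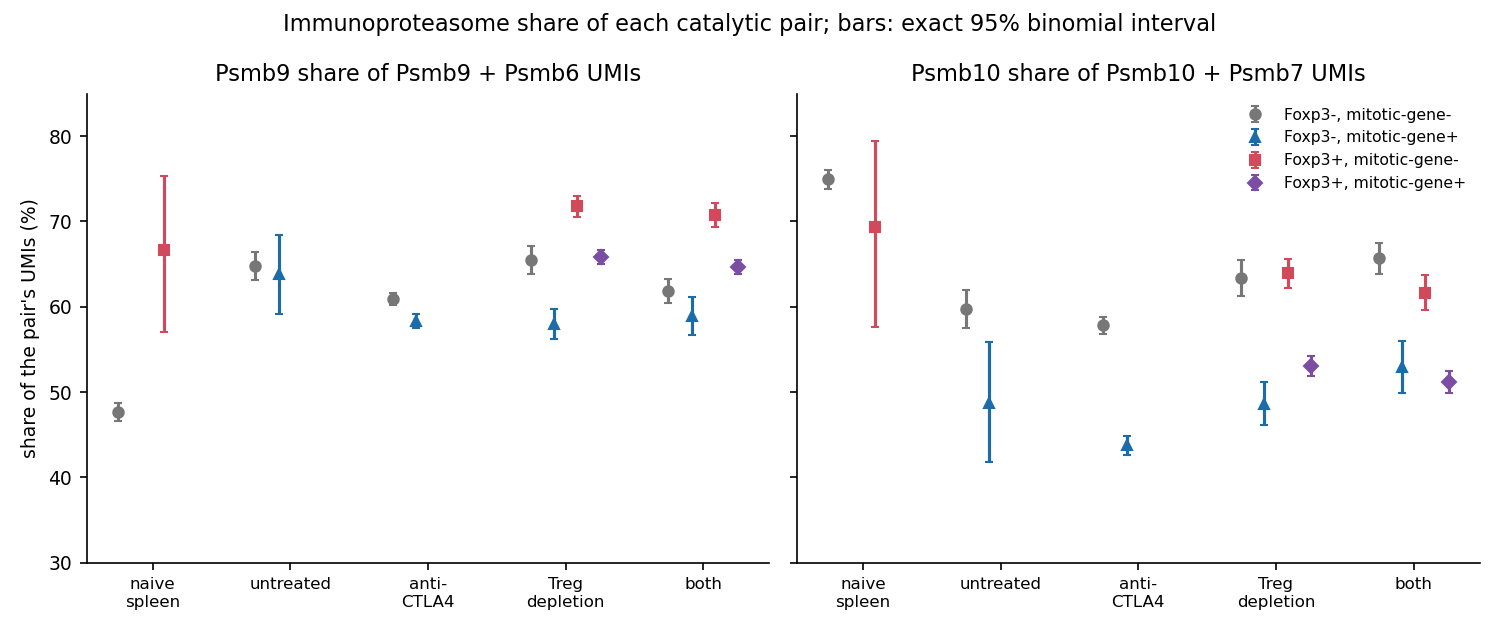
Share of each catalytic pair's UMIs held by the immunoproteasome gene (percent) in each library, by Foxp3 status and mitotic-gene call; bars are exact 95% binomial intervals and cover counting error only. Foxp3-positive, mitotic-gene-negative cells have the highest Psmb9 shares after toxin (71.8% and 70.8%).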

How the data were processed

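Each of the 5 libraries has 1 deposited table of UMI counts, with genes in rows and cells in columns. Per the submitters' processing notes these counts were made with bcl2fastq 2.20 and Cell Ranger 6.0.0 against mm10, with R 4.1.1 and Seurat 4.0.4 also named, and the kit is labelled v2. No deposited cell was removed, no doublet caller was run, and every column belonged to a sample of the series. The calls by cycling or mitotic genes, the tests built on them and thinning to 1000 UMIs took only cells of at least 1000 UMIs. That left out 130 naive, 22 untreated, 0 antibody, 35 depletion and 384 both-treatment cells.

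CPM divides by the UMIs of all 11924 listed genes. Ratios between libraries carry exact 95% conditional binomial intervals and cover counting error only. Tests used edgeR 4.0.16 in R 4.3.3 on UMIs summed per library and state, with DESeq2 1.42.0 as an alternative. The edgeR settings were quasi-likelihood, TMM, filterByExpr, library as block and Benjamini-Hochberg adjustment over all genes, at a threshold of 0.05. Its p-values rest on how within-library differences vary across libraries of different groups, moderated over genes. Residual degrees of freedom were 3 by mitotic genes, 1 by Foxp3 status and 3 in the joint model. The moderation over genes brought 6.26, 10.3 and 7.62. No group has a second library, and nothing says how many animals each library holds. Tested on simulated data, the comparison by mitotic genes (11206 genes) recovered 98% of 2-fold and 54% of 1.5-fold changes. That by Foxp3 status (11294 genes) recovered 80% and 14%, and the Foxp3 term of the joint model (10803 genes) 100% and 88%. The mitotic and interaction terms of the joint model were not simulated. Every sum was drawn independently, so splits of the same library counted as separate draws, and changes were put only into genes with high counts.

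Members named were the immunoproteasome, PA28 and constitutive catalytic genes, the 3 highest and 3 lowest in each comparison (by the interval bound nearest to 1, or among those past the threshold), and up to 4 of each other list by size of the log2 value. Members and lists were chosen with earlier results of these data known. Coordinates come from GENCODE M21 (GRCm38) and promoters from RefSeq (GRCm38.p6).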

Additional observations from a re-analysis of the deposited data

Results flagged for a closer look

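The antibody contrast had opposite directions in the absence and presence of toxin: 31 of 45 members were higher with antibody in mice without toxin and lower with antibody in mice given toxin, against 14.3% of all genes measured in both. The difference between the contrasts was not tested, since each group has 1 library. Median UMIs per cell were also higher with antibody without toxin (4797 against 3133) and lower with it after toxin (2468 against 5208.5). The part of depth was not tested.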

How the results depend on the processing

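Of the values of counts, medians and shares recomputed under the alternatives, 299 stayed within the margin set for them, 141 moved by more and 4, all medians for both against untreated, changed sign from a value whose counting range excludes 0. The median for both against antibody (0.011, with a counting range that includes 0) was below 0 under 7 of 12 alternatives. In each case below the cause was not tested, apart from the smaller number of genes that a higher minimum leaves. The counts for library comparisons below carry a share of all genes only for cells chosen by Foxp3, mitotic-gene call or receptor gene. The other counts show only how the member counts move. No paired analysis was possible because each group has 1 library; the tests within libraries keep the library as their block. Counting error limits the untreated library most, since it holds 58 mitotic-gene-positive and 16 Foxp3-positive cells. The mitotic-gene call, the receptor gene selection, the window of 4000 to 8000 UMIs, library totals in the tests, and markers of 1 other type were chosen after seeing the data.

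In cells not called by the 52-gene list, members at least 1.5-fold higher numbered 0 for antibody against untreated, 2 for depletion against untreated and 1 for both against untreated. Lower members there numbered 1 for untreated against naive, 2 for depletion against untreated and 2 for both against untreated. Their median on the log2 scale was 0.13 for antibody against untreated, 0.077 for depletion against untreated, 0.086 for both against untreated and -0.024 for both against depletion. For depletion against untreated the direction turned for Psmb6 (0.988-fold). For both against depletion the direction turned for Psmb6 (1.03-fold). The Psmb9 share was 45.8% (naive), 61.7% (untreated), 61.7% (antibody), 70.7% (depletion) and 67.0% (both). The Psmb10 share was 76.0% (naive), 62.1% (untreated), 61.6% (antibody), 65.8% (depletion) and 66.2% (both). In cells with no Foxp3 UMI, members at least 1.5-fold higher numbered 4 for depletion against untreated and 1 for both against untreated. Those at least 1.5-fold lower numbered 1 for untreated against naive, 2 for both against untreated, 5 for both against antibody and 2 for both against depletion. On the log2 scale the median was 0.27 for depletion against untreated, -0.053 for both against untreated, -0.27 for both against antibody and -0.34 for both against depletion. For both against untreated the direction turned for Psmb9 (0.954-fold), Psme2 (0.857-fold) and Psmb7 (0.973-fold). For both against antibody the direction turned for Psmb9 (0.893-fold), Psme2 (0.794-fold) and Psmb5 (0.926-fold). The Psmb9 share was 61.9% (depletion) and 61.1% (both). The Psmb10 share was 62.5% (both). With TMM factors for the library comparisons, members at least 1.5-fold higher numbered 28 for depletion against untreated, 10 for both against untreated and 1 for both against antibody. Lower members there numbered 0 for depletion against untreated. Their median on the log2 scale was 0.71 for depletion against untreated, 0.425 for both against untreated, 0.086 for both against antibody and -0.26 for both against depletion. As the mean of single cells' CPM, members at least 1.5-fold higher numbered 1 for antibody against untreated, 1 for both against untreated and 1 for both against antibody. Those at least 1.5-fold lower numbered 1 for untreated against naive, 2 for both against untreated and 1 for both against depletion. On the log2 scale the median was 0.081 for both against untreated, -0.14 for both against antibody and -0.23 for both against depletion. With a minimum mean of 100 CPM, members at least 1.5-fold higher numbered 1 for antibody against untreated and 3 for both against untreated. Lower members there numbered 0 for antibody against untreated, 0 for depletion against untreated, 0 for both against untreated and 0 for both against antibody. In mitotic-gene-negative cells, 1 member was at least 1.5-fold higher for antibody against untreated (2.76% of genes). For both against untreated the count was 1 (7.39%). Lower members there numbered 1 for untreated against naive (16.4%) and 0 for depletion against untreated (19.7%). They numbered 2 for both against untreated (8.8%) and 2 for both against antibody (8.37%). On the log2 scale the median was 0.165 for depletion against untreated, 0.027 for both against untreated and -0.14 for both against antibody. The Psmb9 share was 60.9% (antibody), 69.4% (depletion) and 66.2% (both). The Psmb10 share was 57.9% (antibody), 63.7% (depletion) and 63.9% (both). In cells with neither Foxp3 nor mitotic call, 1 member was at least 1.5-fold higher for antibody against untreated (2.73% of genes). The count was 3 for depletion against untreated (5.03%) and 1 for both against untreated (7.55%). Lower members there numbered 1 for untreated against naive (16.4%) and 3 for both against untreated (7.57%). They numbered 4 for both against antibody (9.52%) and 1 for both against depletion (4.83%). Their median on the log2 scale was 0.16 for depletion against untreated, -0.13 for both against untreated, -0.29 for both against antibody and -0.31 for both against depletion. For both against untreated the direction turned for Psmb9 (0.915-fold), Psme2 (0.818-fold) and Psmb7 (0.883-fold). For both against antibody the direction turned for Psmb9 (0.878-fold), Psme2 (0.705-fold) and Psmb5 (0.901-fold). In Foxp3-negative cells with a receptor gene, 4 members were at least 1.5-fold higher for depletion against untreated (7.28% of genes). The count was 1 for both against untreated (8.43%) and 1 for both against antibody (15.7%). Lower members there numbered 1 for untreated against naive (18.4%), 0 for depletion against untreated (12.9%) and 3 for both against untreated (7.21%). They numbered 5 for both against antibody (11.4%) and 6 for both against depletion (8.18%). On the log2 scale the median was 0.28 for depletion against untreated, -0.11 for both against untreated, -0.36 for both against antibody and -0.47 for both against depletion. For both against untreated the direction turned for Psmb9 (0.895-fold), Psme2 (0.747-fold) and Psmb7 (0.924-fold). For both against antibody the direction turned for Psmb9 (0.832-fold), Psme2 (0.6795-fold) and Psmb5 (0.8805-fold). Without cells holding 2 markers of other types, members at least 1.5-fold higher numbered 1 for antibody against untreated, 2 for depletion against untreated, 1 for both against untreated and 1 for both against antibody. Lower members there numbered 1 for untreated against naive, 2 for depletion against untreated, 3 for both against untreated, 4 for both against antibody and 3 for both against depletion. Their median on the log2 scale was 0.093 for depletion against untreated, -0.081 for both against untreated, -0.275 for both against antibody and -0.24 for both against depletion. For antibody against untreated the direction turned for Psme2 (0.997-fold). For both against untreated the direction turned for Psmb9 (0.968-fold), Psme2 (0.829-fold) and Psmb7 (0.953-fold). For both against antibody the direction turned for Psmb9 (0.960-fold), Psmb10 (0.998-fold), Psme2 (0.832-fold) and Psmb5 (0.892-fold). The Psmb9 share was 60.8% (antibody) and 67.1% (depletion). The Psmb10 share was 56.6% (antibody), 65.3% (depletion) and 62.2% (both). Stricter cell filters (500 or more genes, mitochondrial UMIs up to 5%) gave 1 lower member for untreated against naive, no minimum level gave 1 lower for both against depletion, and leaving out cells with 2 markers of 1 other type gave 1 higher for both against antibody.

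The test of Foxp3 status called 19 members higher. The count was 6 with library totals (11.4% of all genes higher) and 11 with upper quartile factors (14.4%). With no replicate block (the library as block left out) it was 4 (8.36%), and with Foxp3 called after thinning 6 (11.1%). It was 4 in cells not called by the 52-gene list (8.8% of genes), 4 in mitotic-gene-positive cells (7.81%, median 0.19) and 11 in cells of 4000 to 8000 UMIs (13%). It was 1 in cells with a receptor variable gene (5.42% of genes, median 0.50 against 0.50 in all) and 1 over the 4 libraries with at least 50 Foxp3-positive cells (4.74%). The test by mitotic genes called 35 members higher. It called 9 without the library block (10.6% of all genes, median 0.46 against 0.47 with it) and 10 in cells of 4000 to 8000 UMIs (10.7%, median 0.125). With each library left out in turn it called 18 to 35, lowest without the depletion library (11.2% of genes, median 0.44). Lower members numbered 1 in cells with no Foxp3 UMI (16% of genes lower), 2 with library totals (32.2%, median 0.29) and 0 to 1 with each library left out. With library totals the joint model called 17 members higher by Foxp3 (13.1% of genes, median 0.19) and 3 lower by mitotic genes (33.3% of genes, median 0.31). With the 52-gene list, 0 members were called higher. The count was 2 with DESeq2 (3.32% of all genes higher), 2 with no filter on low counts (3.56%) and 1 with at least 3 genes (2.53%). It was 3 with S phase genes added (4.11%) and 0 to 6 with each library left out, highest without the naive library (7.43%). In cells with no Foxp3 UMI 1 member was lower by that list (1.17% of genes lower). With at least 3 genes the cycling term of its joint model called 11 higher (13.2% of genes).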
